A study of Mus musculus with 4 samples.

Results

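The RNA levels of 10 genes for the cell surface of emerging blood cells and for 2 stromal ligands were read in cultured mouse aorta-gonad-mesonephros (AGM) explants. They were Kit, Ptprc, Itga2b, Spn, Cd34, Procr, Adgrg1 and Cxcr4, with the ligands Kitl and Cxcl12. The members were taken by gene symbol, and all 10 of them were present among the 49997 genes of the count tables and passed the filter on low counts. The AGM is the part of the mid-gestation embryo in which the first definitive blood stem cells arise. The tissue was taken from embryos of the C57BL/6J strain and kept for 48 hours on membrane filters in a hydrocortisone-containing medium. The 2 untreated libraries came from explants in that medium alone, and the 2 CCCP libraries from explants that also received 5 µM CCCP. CCCP is a protonophore, a compound that lets protons cross the inner mitochondrial membrane and so collapses its potential. The labels give E10.5 and E11.5 (days of embryonic development) in one place and E10.5 alone in another, without saying which library came from which day. They give the cell type as embryonic haematopoietic stem cells (HSCs), and the design text as c-kit-positive ones, while the extraction text speaks of RNA from explants. How many embryos went into a library, and whether the replicates were separate cultures, is not stated, so p-values measure only the spread between these samples, which may be technical.

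As background, blood stem cells form by budding from the arterial endothelium of the AGM and change their surface step by step. Endothelial and early progenitor cells share Cd34, Procr and Kit. Itga2b (the integrin chain CD41) appears early, Spn (CD43) follows, and Ptprc (CD45) marks the later, more mature steps and all leukocytes. Stromal and endothelial cells around the aorta make Kitl, the ligand of the Kit receptor, and Cxcl12, the chemokine that binds Cxcr4. The comparison asks how the RNA of these receptors, markers and ligands differs in explants given CCCP.

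The libraries held 37360968 to 48827826 counted reads, replicate 1 being the deeper one in both groups. The 10 genes together took 0.0517% and 0.0510% of the untreated reads and 0.0456% and 0.0416% of the CCCP reads. Levels are given as CPM, the read count scaled to library size with TMM factors. A count of 3, the floor used here, is 0.0614 to 0.0803 CPM before those factors. Marker lists were read against the labelled cell type. The stromal markers summed to between 4639 and 7234 CPM, the endothelial markers to between 915 and 1180 CPM, and the leukocyte genes to between 355 and 426 CPM. Hepatic markers (20 tested of 22 listed) summed to 1942 and 1124 CPM without treatment and to 66.1 and 133 CPM with CCCP. All 20 were lower in both CCCP libraries than in both untreated ones, where 24.8% of all genes were. The part of the hepatic markers in the results that follow was not tested.

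None of the 10 genes passed at 0.05 in the quasi-likelihood test of edgeR, whose p-values were adjusted by Benjamini-Hochberg over 19837 genes. That call was made for 0.0% of all genes. At an unadjusted p under 0.05 by the same edgeR test there were 3 of 10, Kitl, Ptprc and Spn, all lower in CCCP, where 9.16% of all genes were called lower and 5.45% higher. DESeq2 called 2 of 10, Kitl and Ptprc. Of the 17914 genes to which it gave an adjusted p, it called 2.99% lower and 0.329% higher. With the replicate number as a block edgeR called the same 2 genes, against 6.88% of all genes lower and 3.80% higher. Kitl alone was called, lower, without the filter on low counts, where 2.76% of 32261 genes were lower and 0.673% higher. It was also the only one called with the block after removal of the length trend of each library (3.45% of all genes lower, 2.81% higher). The same held after removal of the GC trend (2.55% of 17929 genes lower, 1.14% higher). Both CCCP libraries lay below both untreated libraries for 4 of 10, Kitl, Ptprc, Spn and Cxcl12, against 24.8% of all genes. None lay above in both, against 24.0% of all genes. The median log2 fold change of the 10 genes was -0.24, and that of all genes tested was -0.01.

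**Figure D1:**
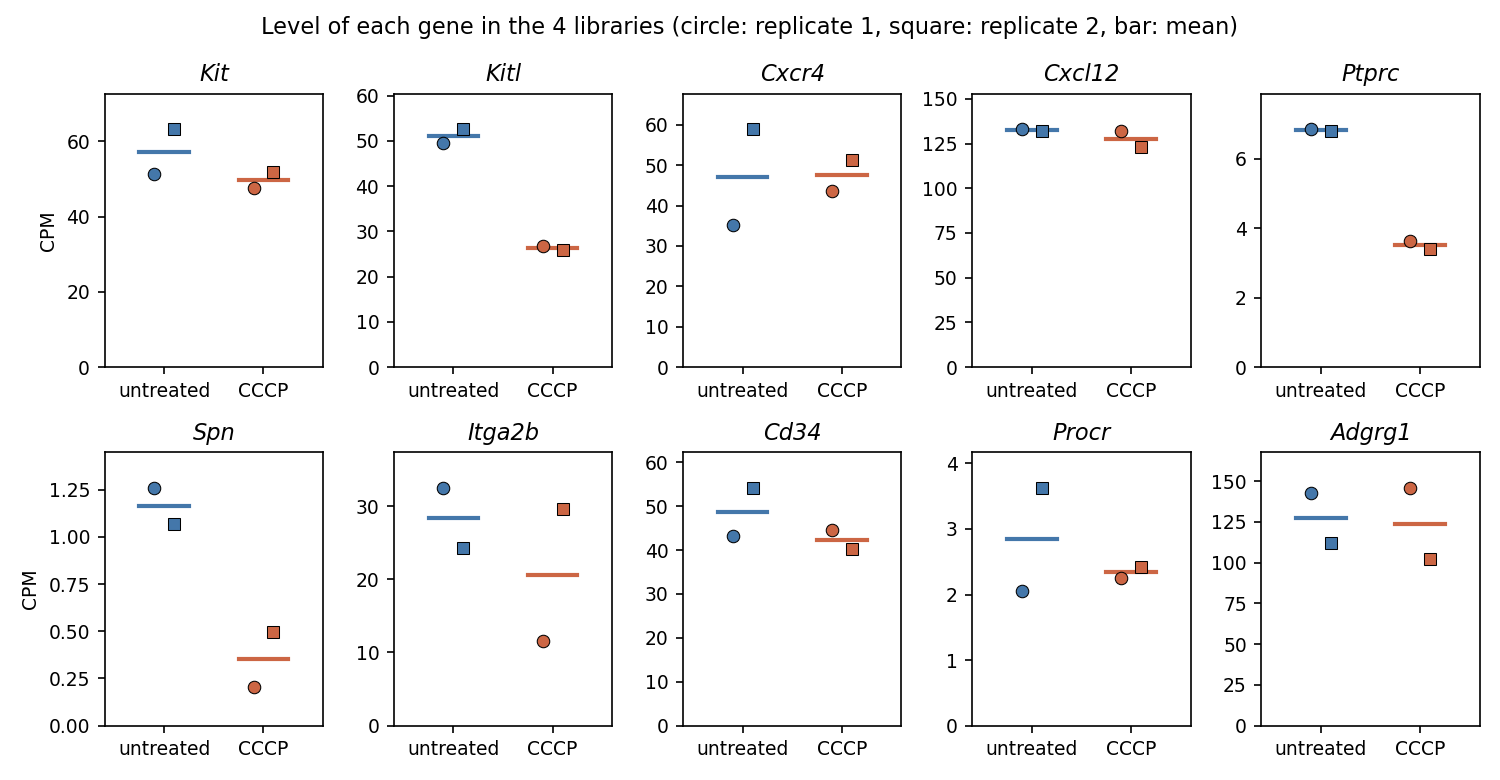
CPM of each of the 10 genes (vertical axis, from 0, a scale of its own in each panel) in the 2 untreated and 2 CCCP libraries, with circles for replicate 1, squares for replicate 2 and bars for the group mean. Kitl and Ptprc separate by group with replicates close together, Itga2b is spread by 1 CCCP library, and Adgrg1 separates by replicate number.

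Kitl encodes stem cell factor, a membrane-bound and shed ligand that keeps Kit-bearing progenitors alive. It is encoded on chromosome 10 (mm10, chr10:100015615-100100416, plus strand, 10 exon blocks). Its level was 49.6 and 52.6 CPM in untreated replicates 1 and 2 and 26.8 and 25.8 CPM in CCCP replicates 1 and 2. The groups did not overlap and lay 22.8 CPM apart, against differences within groups of at most 1.06-fold. The untreated mean was 51.1 ± 2.10 CPM (SD, n = 2) and the CCCP mean 26.3 ± 0.708 CPM (SD, n = 2), which is 48.5% lower. On the log2 scale CCCP minus untreated was -0.96 (standard error 0.121, 95% interval -1.25 to -0.66). Its unadjusted edgeR p was 0.0002, and 0.131% of the genes tested had a p as small. The edgeR adjusted p was 0.144. A log2 value as low as this or lower was seen in 6.31% of all genes tested. DESeq2 gave an adjusted p of 9.85e-06, and over all alternatives the adjusted p ran from 9.85e-06 to 0.398. With the replicate number as a block the edgeR adjusted p was 0.000644. In bulk RNA, fewer cells that make Kitl and less Kitl RNA per cell cannot be told apart.

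Kit, the receptor tyrosine kinase that binds Kitl (chr5:75574987-75656722, plus strand), did not separate by group. It stood at 51.2 and 63.2 CPM in the untreated libraries and at 47.6 and 51.7 CPM in the CCCP libraries. Untreated replicate 2 was the high library, and CCCP replicate 2 lay above untreated replicate 1, so the groups overlapped. The log2 difference was -0.21 (standard error 0.144, 95% interval -0.56 to 0.15, edgeR adjusted p 0.53). The ratio of Kitl to Kit, both as CPM per kb of exon, was 0.922 and 0.792 without treatment and 0.536 and 0.475 with CCCP. Ligand RNA was thus lower against receptor RNA in both CCCP libraries than in either untreated one.

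Other cells of this region also carry Kit, among them primordial germ cells, melanoblasts and mast cells, and their markers were read beside it. The germ cell markers summed to 28.4 and 52.9 CPM untreated and 32.6 and 34.7 CPM with CCCP, with 12 of 16 passing the filter and Mael at 0 in all libraries. The sum was highest in untreated replicate 2, the library highest in Kit, but 5 of the 12 markers (41.7%, against 50.1% of all genes) were higher there than in untreated replicate 1. The melanoblast markers summed to between 171 and 205 CPM, with 7 of 13 passing the filter and Tyrp1 at 0. Their median log2 difference was 0.70, and 0.35 without CCCP replicate 1. At an unadjusted edgeR p under 0.05, 2 of the 7 were higher and 1 lower, where 5.45% of all genes were higher and 9.16% lower. DESeq2 called 1 of the 7 higher, where it called 0.329% of 17914 genes higher. Mast cell markers summed to between 29.8 and 37.5 CPM. Only 6 of 14 passed, and Mcpt4, Tpsb2, Tpsab1, Fcer1a and Mrgprb1 had 0 counts in all libraries. The part of these cells in the level of Kit was not tested.

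The sequences upstream of Kitl and Kit are shown because the ligand separated by group and the receptor did not. They are RefSeq sequences of GRCm38.p6, the build of the count tables (mm10), printed 5′ to 3′ on the strand of the gene. The windows of the table span 250 bases before a start site to 50 after it, and 13 windows matched the 10 genes. Both strands were searched for 6 motifs, of which the ETS and PU.1 ones end in the same 4 letters. The GATA factor motif was searched as AGATAA and the motif of RUNX factors as TGTGGT. The motif of ETS factors was searched as CCGGAA and that of their relative PU.1 as GAGGAA. The core of the hypoxia response element was searched as ACGTG and the TATA box as TATAAA. Capitals mark any match. For Kitl, the stretch outside all annotated exons is short, since another transcript starts further upstream, and a second piece of 30 bases shows the TATA box, which begins 25 bases before the start site of the table.
Kitl, chr10:100015571-100015614, plus strand: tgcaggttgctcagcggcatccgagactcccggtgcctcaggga
Kitl around the TATA box, chr10:100015784-100015813, plus strand: gggagggagctgTATAAAaagcgctggcgg
Kit, chr5:75574737-75574986, plus strand: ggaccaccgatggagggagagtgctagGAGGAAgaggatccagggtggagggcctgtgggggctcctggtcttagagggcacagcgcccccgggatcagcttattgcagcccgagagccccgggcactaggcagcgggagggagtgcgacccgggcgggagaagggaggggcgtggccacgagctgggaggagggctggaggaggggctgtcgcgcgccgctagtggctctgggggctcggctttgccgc
Kitl has TATAAA and, in the exonic part that is not printed, CCGGAA, while Kit has GAGGAA alone of the 6 motifs. Of all 32851 windows of the table, 13.6% hold TATAAA, 14.9% CCGGAA and 28.3% GAGGAA. Neither gene has the GATA, RUNX or hypoxia motif in its windows.

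Beyond the pair itself, 32 other genes of Kit signalling were read, from adaptors to the Ras and phosphoinositide kinases and the sheddases of Kitl. None passed in edgeR over all genes or in DESeq2, which called 2.99% of 17914 genes lower and 0.329% higher. At an unadjusted p under 0.05 in edgeR, 1 was higher and 4 were lower, where 5.45% of all genes were higher and 9.16% lower. The median log2 fold change of the 32 genes was 0.02. Sos1, an exchange factor that activates Ras downstream of Kit, had the smallest p of these. It stood at 93.1 and 85.1 CPM untreated and 62.2 and 65.0 CPM with CCCP, which is -0.49 on the log2 scale (edgeR adjusted p 0.206, 0.0158 with the replicate block). Its log2 value was -0.25 with the length trend and -0.21 with the GC trend removed. With the block, edgeR called 2 of the 32 lower, where it called 6.88% of all genes lower. The summed level of the 32 genes lay between 2448 and 2491 CPM in the 4 libraries.

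Cxcl12 and its receptor Cxcr4, a G protein-coupled receptor that guides and holds progenitors, differed little between the group means. Cxcl12 lies at chr6:117168535-117181368 (plus strand) and Cxcr4 at chr1:128588199-128592299 (minus strand). Cxcl12 stood at 133 and 132 CPM untreated and 132 and 123 CPM with CCCP. All 4 values were within a narrow band, and both CCCP libraries lay below both untreated ones by 0.218 CPM. The log2 fold change was -0.06, with a 95% interval of -0.33 to 0.21 and an edgeR adjusted p of 0.841. For Cxcr4 the untreated libraries had 35.2 and 58.9 CPM and the CCCP libraries 43.6 and 51.3 CPM. The CCCP values fell inside the untreated range, which spanned 1.68-fold. Its log2 fold change was 0.01, with a 95% interval of -0.59 to 0.62 and an edgeR adjusted p of 0.986. The interval of Cxcl12 was thus narrower than that of Cxcr4.

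The 2 stromal ligands had different ratios of the group means, with Kitl at 0.515 and Cxcl12 at 0.962 of the untreated mean. On the log2 scale they stood at -0.96 and -0.06, at -0.86 and 0.11 with the length trend of each library removed, and at -0.61 and -0.12 with the GC trend removed. The difference between the ligands was not itself tested. As a share of the summed stromal markers, Kitl was 0.685% and 1.13% untreated and 0.431% and 0.512% with CCCP, and Cxcl12 was 1.84% and 2.84% untreated and 2.12% and 2.45% with CCCP. The 27 stromal markers tested had a median log2 difference of -0.09 (0.12 without untreated replicate 1). At an unadjusted edgeR p under 0.05, 1 of the 27 was higher and 3 were lower, where 5.45% of all genes were higher and 9.16% lower. With the replicate block edgeR called 1 higher and 4 lower, where it called 3.80% of all genes higher and 6.88% lower. Of the 21 other genes of the Cxcl12 axis, 0 passed in edgeR, as for all genes. DESeq2 also called 0 of them, where it called 2.99% of 17914 genes lower and 0.329% higher. At an unadjusted edgeR p under 0.05 there were 0 in either direction, where 9.16% of all genes were lower and 5.45% higher. The median log2 fold change of these 21 genes was 0.06. Gnai2, the G protein subunit through which Cxcr4 signals, stood at 286 and 356 CPM untreated and 412 and 401 CPM with CCCP (edgeR adjusted p 0.363). Rgs1, which dampens that signal, had 3.39 and 2.27 CPM untreated and 1.09 and 1.93 CPM with CCCP (edgeR adjusted p 0.378).

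**Figure D2:**
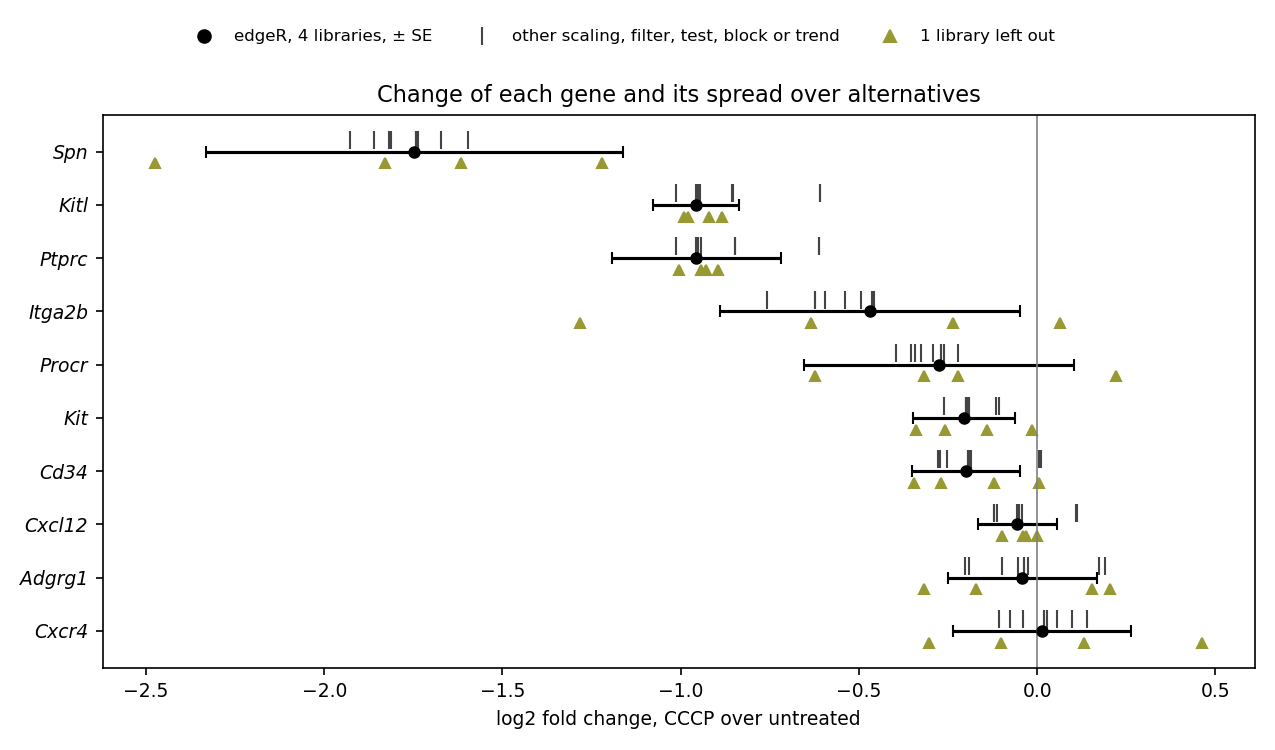
The log2 fold change of CCCP over untreated (horizontal axis) for each of the 10 genes, with the edgeR estimate and its standard error as a black point and bar, other processing choices as ticks above, and fits that leave out 1 library as triangles below. Spn, Kitl, Ptprc and Kit stay left of 0 throughout, though Kit reaches -0.01 without untreated replicate 2. The Itga2b estimates run from -1.28 to 0.06, and those of Cxcr4, Adgrg1, Cd34, Procr and Cxcl12 fall on both sides of 0.

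Ptprc (chr1:138062859-138175756, minus strand, 34 exon blocks) encodes CD45, the receptor phosphatase carried by leukocytes and by the later blood stem cell precursors. It was counted at 343 and 255 reads untreated and 177 and 123 reads with CCCP, which is 6.85 and 6.81 CPM against 3.64 and 3.39 CPM. The groups did not overlap, and the exact Poisson intervals, which cover counting error only, ran from 6.00 to 7.70 CPM in the untreated libraries and from 2.82 to 4.22 CPM in the CCCP libraries. The CCCP mean was 48.5% lower than the untreated mean. The log2 difference was -0.96 (standard error 0.237, 95% interval -1.53 to -0.38). Its edgeR p of 0.00658 became 0.216 after adjustment. DESeq2 gave an adjusted p of 0.0459 and edgeR with the replicate block gave 0.0211, in a range over all alternatives of 0.0211 to 0.775.

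Spn (chr7:127123637-127145552, minus strand) encodes CD43, a sialylated mucin of the blood cell surface. It was the most sparsely counted of the 10, with 63 and 40 reads untreated and 10 and 18 reads with CCCP. These are 1.26 and 1.07 CPM against 0.206 and 0.496 CPM, and the highest CCCP value lay below the lowest untreated one. The exact Poisson intervals of untreated replicate 2 (0.764 to 1.46 CPM) and CCCP replicate 2 (0.294 to 0.784 CPM) overlapped. The CCCP libraries differed from each other by 2.41-fold. The log2 difference was -1.75 (standard error 0.585, 95% interval -3.17 to -0.32, edgeR adjusted p 0.284). DESeq2 gave an adjusted p of 0.253. Of the 3 genes below an unadjusted p of 0.05, Spn had the lowest log2 value and the fewest reads.

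Other leukocyte genes were read beside these antigens. The list of 33 leukocyte genes, such as the actin regulators Coro1a and Lcp1 and the signalling protein Vav1, centred at a log2 difference of -0.10 (0.14 without untreated replicate 1). None passed in edgeR, as for all genes, or in DESeq2, which called 2.99% of 17914 genes lower and 0.329% higher. At an unadjusted edgeR p under 0.05 there were 0, where 9.16% of all genes were lower and 5.45% higher. By log2 value 12 lay above 0 and 21 below 0, where 9751 and 10086 of all 19837 genes did. Both CCCP libraries lay below both untreated ones for 7 of 33 and above for 5 of 33, where 24.8% of all genes lay below and 24.0% above. The lowest p values among those below 0 belonged to Plek, a platelet and leukocyte protein kinase C substrate, and Cybb, a subunit of the phagocyte oxidase. Plek had a log2 fold change of -0.63 (edgeR adjusted p 0.367) and Cybb one of -0.73 (edgeR adjusted p 0.375). As a share of the summed leukocyte genes, Ptprc was 1.61% and 1.92% untreated and 1.02% and 0.866% with CCCP. Spn was 0.295% and 0.301% untreated and 0.0578% and 0.127% with CCCP. The 18 macrophage markers had a median log2 difference of 0.07 (-0.15 without untreated replicate 2). They summed to 346 and 235 CPM untreated and 329 and 328 CPM with CCCP. At an unadjusted edgeR p under 0.05, 2 of the 18 were higher and 1 lower. With the replicate block edgeR also called 2 higher and 1 lower, where it called 3.80% of all genes higher and 6.88% lower. DESeq2 called 1 of the 18 lower.

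Itga2b (chr11:102453297-102469883, minus strand) encodes CD41, the alpha chain of the fibrinogen receptor, which early progenitors share with megakaryocytes and platelets. Its value was set by 1 library, since it stood at 32.5 and 24.3 CPM untreated and at 11.6 and 29.6 CPM with CCCP. CCCP replicate 1 was the lowest of the 4, and CCCP replicate 2 lay between the untreated values. The log2 difference was -0.47 (standard error 0.421, edgeR adjusted p 0.623). It was 0.06 without CCCP replicate 1 and -1.28 without CCCP replicate 2, so the direction rested on 1 library.

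The list of megakaryocyte and platelet markers showed the same low library. They summed to 191 and 158 CPM untreated and 107 and 156 CPM with CCCP, and 17 of 19 were lower in CCCP replicate 1 than in CCCP replicate 2, against 52.1% of all genes. Itga2b over Pf4, a platelet chemokine, stayed between 1.40 and 1.76 in the 4 libraries. Its ratio to Itgb3, the beta chain with which it pairs, was 1.06 and 1.17 untreated and 0.895 and 1.42 with CCCP, both as CPM per kb. Erythroid markers also differed between the CCCP libraries, with 18 of 19 lower in CCCP replicate 1. The median log2 fold change of the platelet list was -0.61. It was -0.26 without CCCP replicate 1, -0.34 without untreated replicate 1 and -1.21 without CCCP replicate 2. In all, 2 of 19 had an unadjusted edgeR p under 0.05, both lower, where 9.16% of all genes were lower and 5.45% higher. Those 2 were Mmrn1, a platelet and endothelial granule protein, and Ppbp, a platelet chemokine. Mmrn1 stood at 12.8 and 15.8 CPM untreated and 6.49 and 7.16 CPM with CCCP (edgeR adjusted p 0.171, DESeq2 adjusted p 0.00255, replicate block 0.00362). Ppbp stood at 4.43 and 4.06 CPM untreated and 1.09 and 2.09 CPM with CCCP (edgeR adjusted p 0.241, replicate block 0.0153, no filter 0.00959). Both lay lower in each CCCP library than in either untreated one, unlike Itga2b.

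Sequences upstream of a start site of Ptprc and of Itga2b are shown because these blood cell markers differed in the spread between CCCP replicates. Both are RefSeq sequences of GRCm38.p6 on the minus strand, cut to the bases outside annotated exons, with capitals as above. The Ptprc stretch lies inside the span of the gene, whose outermost 5′ end is at 138175756. It precedes an inner start site and is not the sequence upstream of the whole gene.
Ptprc, chr1:138175334-138175555, minus strand: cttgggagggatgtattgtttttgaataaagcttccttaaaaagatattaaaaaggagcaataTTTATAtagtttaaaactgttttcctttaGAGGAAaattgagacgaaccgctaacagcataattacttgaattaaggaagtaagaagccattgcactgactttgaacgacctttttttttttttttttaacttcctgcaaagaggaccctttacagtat
Itga2b, chr11:102469884-102470133, minus strand: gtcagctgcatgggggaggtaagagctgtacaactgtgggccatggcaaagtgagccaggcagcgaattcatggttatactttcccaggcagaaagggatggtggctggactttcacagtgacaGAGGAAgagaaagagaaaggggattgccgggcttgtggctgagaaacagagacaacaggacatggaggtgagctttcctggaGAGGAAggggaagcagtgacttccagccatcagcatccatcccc
Both hold GAGGAA, Itga2b at 2 positions, and so does Kit, where 28.3% of all windows hold it. Ptprc has a TATAAA match (13.6% of all windows) on the opposite strand. The second, downstream window of Ptprc has AGATAA, a motif found in 11.2% of all windows. TGTGGT (16.8% of all windows) and ACGTG (19.6%) matched in no window of the 10 genes. A match describes letters, not binding.

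Cd34 (chr1:194938821-194961292, plus strand), a sialomucin of progenitors and small vessels, stood at 43.1 and 54.2 CPM untreated and 44.5 and 40.2 CPM with CCCP. Untreated replicate 2 was high and the groups overlapped. Its log2 fold change was -0.20, with a 95% interval of -0.57 to 0.17 and an edgeR adjusted p of 0.561. Over the 4 libraries Cd34 was 4.72%, 4.60%, 4.59% and 4.27% of the summed endothelial markers, in the order untreated replicates 1 and 2 and CCCP replicates 1 and 2. The share varied less between libraries than the CPM did. Exons of Cd34 overlap those of Gm16897, on the opposite strand, by 148 bases, and the counting ignored strand.

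Procr (chr2:155751125-155755478, plus strand) encodes EPCR, the endothelial receptor of protein C that also marks blood stem cells. It was sparse, with 103 and 136 reads untreated and 110 and 88 reads with CCCP. The levels were 2.06 and 3.63 CPM untreated and 2.26 and 2.42 CPM with CCCP, so both CCCP libraries lay inside the untreated range. The log2 fold change of -0.28 had a 95% interval of -1.20 to 0.65 and an edgeR adjusted p of 0.756, and it was 0.22 without untreated replicate 2.

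Adgrg1 (chr8:94974756-95014208, plus strand) encodes GPR56, an adhesion G protein-coupled receptor of blood stem cells and of neural progenitors. It had 143 and 112 CPM untreated and 146 and 102 CPM with CCCP. Replicate 1 was the higher library in each group, and the groups overlapped. The log2 fold change was -0.04, with a 95% interval of -0.55 to 0.46 and an edgeR adjusted p of 0.942. Its exons share 6 bases with Gm51544 on the opposite strand. The replicates of a group thus differed by more than the group means, 128 and 124 CPM.

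Kit, Cd34, Procr and Cxcr4 were each highest in untreated replicate 2, and so was Kitl, there 1.06-fold above untreated replicate 1. The summed endothelial markers were also highest there, at 1180 CPM against 915, 969 and 943 CPM in untreated replicate 1 and CCCP replicates 1 and 2, and 26 of 28 were higher in untreated replicate 2 than in untreated replicate 1. All 18 macrophage markers were lower in untreated replicate 2 than in untreated replicate 1; of all genes, 50.1% were lower in untreated replicate 1. The endothelial median on the log2 scale was -0.10 (0.16 without untreated replicate 2). Of the 28, 4 had an unadjusted edgeR p under 0.05, all 4 lower, where 9.16% of all genes were lower and 5.45% higher. Flt1, a VEGF receptor, had a log2 fold change of -0.59 and Clec14a, an endothelial lectin, one of -0.66 (edgeR adjusted p 0.223 and 0.278). For Flt1 the edgeR adjusted p was 0.013 with the replicate block and 0.0185 with no filter, and its log2 value was -0.28 with the length trend removed.

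Between genes, levels were compared as CPM per kb of exon. Cxcr4 was the highest, with a mean of 25.7 over the 4 libraries, and its lowest library (19.1) lay above the highest of Cxcl12 (18.6). Cxcl12 (18.1), Cd34 (17.4) and Adgrg1 (14.3) followed, and each overlapped the next in this order. Kit (9.70), Itga2b (7.12) and Kitl (6.69) formed the next step, again with ranges that overlapped from one to the next and below every library of Adgrg1. Procr (1.42) and Ptprc (0.880) overlapped each other, and Spn (0.113) lay below every library of Ptprc. Set among all genes tested, Cxcr4 was above 87.1% of them, Kit above 68.5%, Procr above 36.1%, Ptprc above 30.2% and Spn above 7.30%. Procr and the later leukocyte antigens Ptprc and Spn were among the lower genes of these libraries.

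**Figure D3:**
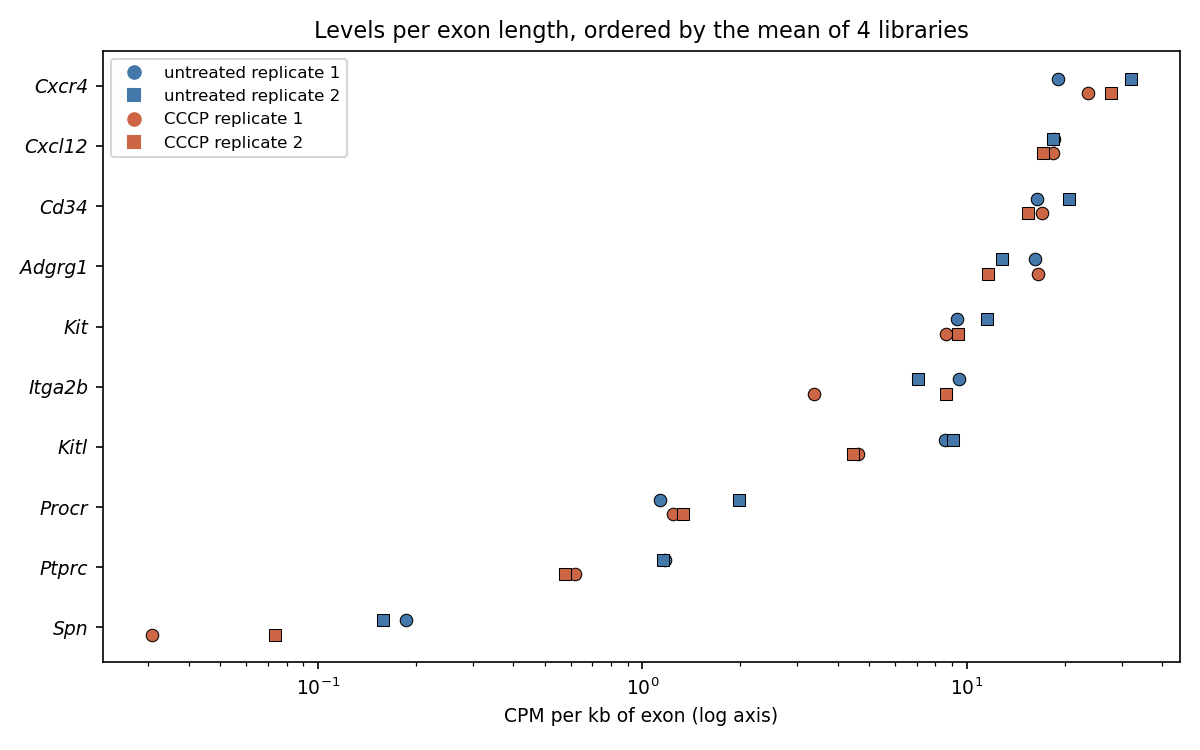
CPM per kb of exon (horizontal log axis) of the 10 genes, ordered by their mean over the 4 libraries, with untreated libraries in blue and CCCP libraries in orange, circles for replicate 1 and squares for replicate 2. Levels run from 0.113 for Spn to 25.7 for Cxcr4, and the CCCP points of Kitl, Ptprc and Spn lie to the left of the untreated ones.

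Of 38 other surface markers of progenitors that were tested, none passed in edgeR or DESeq2. Of all genes, DESeq2 called 2.99% of 17914 lower and 0.329% higher. Ly6a had no adjusted p in DESeq2, so it could not be called there. At an unadjusted edgeR p under 0.05 there were 1 higher and 2 lower, where 5.45% of all genes were higher and 9.16% lower. With the replicate block edgeR called 1 higher and 2 lower, where it called 3.80% of all genes higher and 6.88% lower. The median log2 fold change of the 38 was -0.07. The lower ones were Itga4, an integrin chain that binds Vcam1, and Tek, the angiopoietin receptor. Itga4 had 72.8 and 66.4 CPM untreated and 32.4 and 54.4 CPM with CCCP (log2 fold change -0.68, edgeR adjusted p 0.302, 0.0153 with the block and 0.00172 with no filter). Tek had 8.28 and 13.0 CPM untreated and 6.22 and 6.36 CPM with CCCP (log2 fold change -0.75, edgeR adjusted p 0.308, 0.047 with the block). CCCP replicate 1 was again the lower library for Itga4, as for Itga2b, and without it the log2 value of Itga4 was -0.35. It was -1.09 without CCCP replicate 2, -0.42 with the length trend removed and -0.42 with the GC trend removed. For Tek it was -0.37 without untreated replicate 2.

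The higher one was Ly6a, the antigen Sca-1, which rested on few reads. It had 2 reads in each untreated library, under the floor of 3, and 22 and 21 reads in the CCCP libraries. The ratio of summed reads, scaled to library size, was 11.1, with an exact 95% interval of 4.03 to 42.5 that covers counting error only, and the edgeR adjusted p was 0.195 (0.0304 with the replicate block, 0.041 with no filter).

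Other niche ligands and adhesion molecules gave 29 genes that were tested, with a median log2 fold change of -0.03 (0.03 without untreated replicate 1). None passed in edgeR, and DESeq2 called 1 lower, where it called 2.99% of 17914 genes lower. At an unadjusted edgeR p under 0.05 there were 1 higher and 4 lower, where 5.45% of all genes were higher and 9.16% lower. With the replicate block edgeR called 2 higher and 3 lower, where it called 3.80% of all genes higher and 6.88% lower. Cxcl10, an interferon-induced chemokine, had 62 and 39 reads untreated and 12 and 6 reads with CCCP (log2 fold change -2.44, edgeR adjusted p 0.194, 0.0184 with the block and 0.00837 with no filter). Igfbp2, a secreted binding protein of insulin-like growth factors, had 140 and 166 CPM untreated and 183 and 216 CPM with CCCP (log2 fold change 0.38, edgeR adjusted p 0.321, 0.0387 with the block), and its log2 value was 0.23 with the length trend and 0.20 with the GC trend removed. The haematopoietic growth factor genes Csf2 and Il3 had 0 counts in all 4 libraries.

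**Figure D4:**
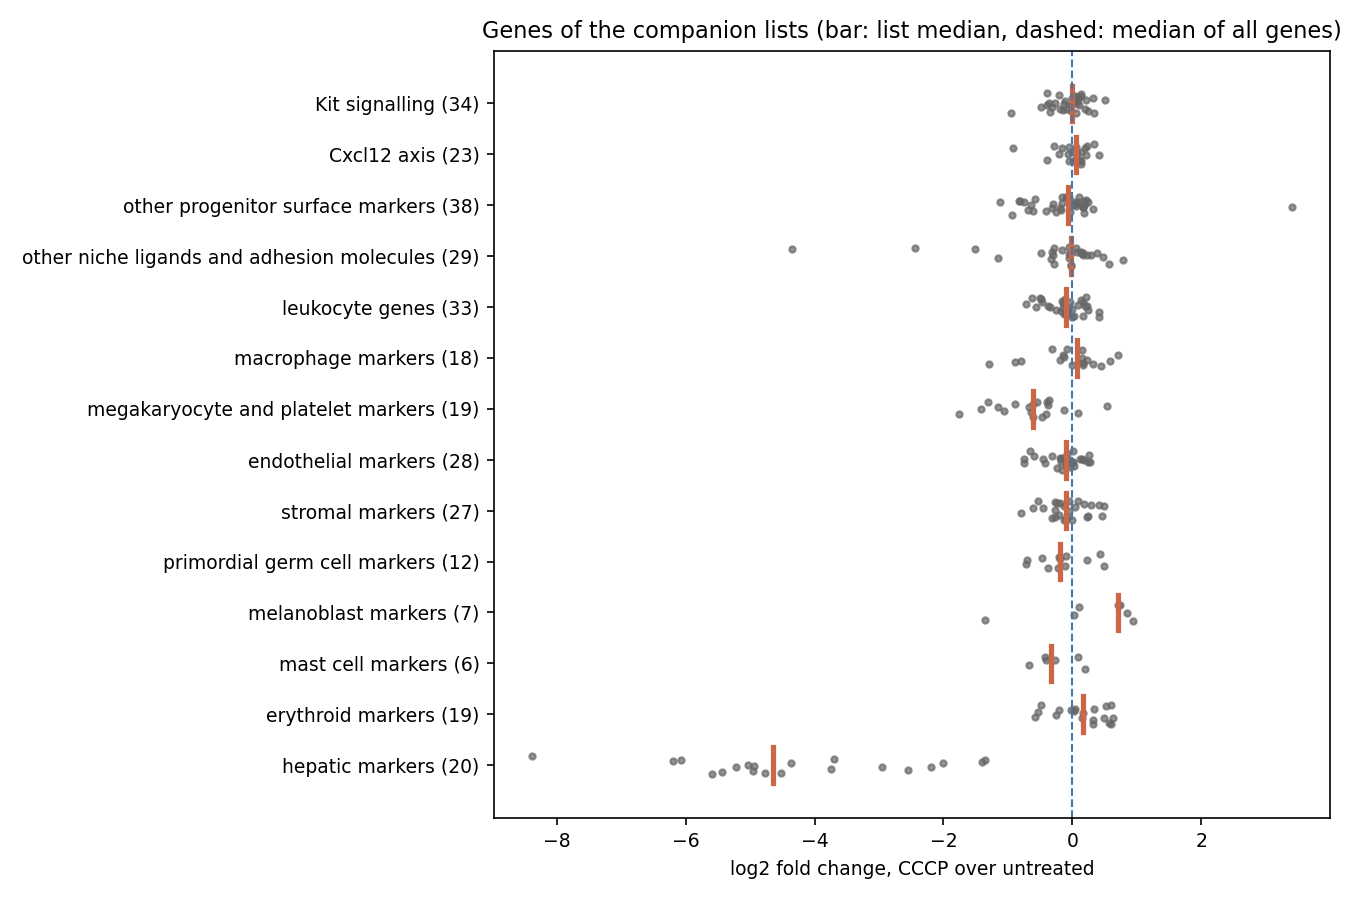
Log2 fold change of CCCP over untreated (horizontal axis) for every tested gene of the 14 companion lists, 1 grey point per gene with the number of genes after the list name, the list median as an orange bar and the median of all genes as a dashed line. The Kit signalling and Cxcl12 axis genes gather around 0, the platelet markers centre at -0.61 (-0.26 without CCCP replicate 1) and the hepatic markers at -4.65.

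Kitl and Ptprc were close in length and base composition. Their exons sum to 5783 and 5876 bases, and the GC content of their transcripts was 39.3% and 39.4%. Across the genes tested, log2 fold changes went with exon length (Spearman's rho -0.35) and with GC content (rho 0.374), a description across genes, which are not independent replicates. With the GC trend of each library removed, a correction chosen after seeing the data, the log2 fold change was -0.61 for both Kitl and Ptprc, with edgeR adjusted p of 0.312 and 0.459. With the length trend removed it was -0.86 for Kitl and -0.85 for Ptprc. Spn, at 53.2% GC, stood at -1.86 and -1.60 under these corrections. The direction was the same in each of these fits.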

How the data were processed

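Poly(A) RNA of explants was sequenced in 4 directional libraries, per the labels' protocols. The authors deposited raw read counts per gene, made with featureCounts 2.0.3 over exons of the mm10 RefSeq annotation, per the file headers. The recorded command counts reads rather than pairs and sets no strand and no multimapping option. HISAT2, SAMtools, FastQC and Subread are named in the submitters' processing notes. The column of untreated replicate 1 has the name UM1 in its file header. Any 2 libraries differed beyond sampling noise (chi-square per degree of freedom at least 34.89).

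Counts were tested in edgeR 4.0.16 (R 4.3.3), with TMM scaling, a minimum count of 10 (total 15), group as the only term, and adjustment over 19837 genes. The biological coefficient of variation was 21.9%, and a two-sided exact permutation test of 2 against 2 cannot go below p = 0.333. DESeq2 1.42.0, another scaling, no filter, a replicate block, offsets for exon length and leaving out each library were alternatives. Offsets for GC content (known for 90.4% of genes) were chosen after seeing the data. The edgeR script was tested on simulated data. Poisson and binomial intervals cover counting error only.

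All 10 members are named. From each companion list at most 2 genes in each direction with the smallest unadjusted p were named, with the 2 genes most alike for Kit, Ptprc and Cxcl12. The members and lists were chosen with earlier results of these data known, and the labels do not say what a replicate number marks. One result of the list of other niche ligands is not reported here.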

Additional observations from a re-analysis of the deposited data

How the results depend on the processing

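edgeR called 0 genes, also with DESeq2's size factors, with total counts only and with the length or the GC trend removed. It called 1107 genes with no filter on low counts, 2118 with the replicate block, 1242 with that block plus the length offset, and 662 with it plus the GC offset, and DESeq2 called 594. Leaving out 1 library gave 10 to 46. Of the 10 members, DESeq2 and the replicate block each called 2 (Kitl and Ptprc). No filter, the block plus the length offset and the block plus the GC offset each called 1 (Kitl), and every other alternative 0. The pairing by replicate number rests on 2 pairs (correlation of deviations 0.36), a hint from the data and not the design. Both CCCP libraries lay below both untreated ones for 4 members (24.8% of all genes), for 6 with total counts only (28.6%), and for 5 to 8 when 1 library was left out (34.1% to 41.2% of all genes), where fewer libraries have to separate. The count of 8 was without untreated replicate 1 (37.0% of all genes).

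Kit, Kitl, Ptprc and Spn were below 0 in all 13 alternatives. For Kit the value was close to 0 without untreated replicate 2, at -0.0147, and its lowest was -0.3401, without untreated replicate 1. The log2 value changed sign with the length trend removed for Adgrg1 (0.1905, with the block 0.1737), Cxcr4 (-0.1059, with the block -0.0757) and Cxcl12 (0.1099, with the block 0.1106). It did so with the GC trend removed for Cd34 (0.0047, with the block 0.0108) and with total counts only for Cxcr4 (-0.0388). Leaving out 1 library gave -1.2823 to 0.0641 for Itga2b, -0.3453 to 0.0067 for Cd34, -0.6231 to 0.22 for Procr, -0.3171 to 0.2039 for Adgrg1, -0.3038 to 0.4637 for Cxcr4 and -0.0983 to 0.0001 for Cxcl12. The cause was not tested. Of 182 list medians under alternatives, 19 had the other sign, in 9 of 14 lists.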

Other observations

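Likeness was the root mean square difference of centred log2 CPM over the 4 libraries. Only genes with a mean of at least 5 CPM were compared, and predicted genes were left out. The genes most like Ptprc were Cep126 (0.024) and Kitl (0.0367), with 32 of 11871 genes nearer than 0.1. Cep126, which encodes a centrosomal protein, stood at 18.9 and 18.6 CPM untreated and 10.2 and 9.09 CPM with CCCP. The genes most like Kit were Nck1 (0.0064) and Twistnb (0.0083), with 671 genes nearer than 0.1. Those most like Cxcl12 were Bms1 (0.0026) and Narf (0.0127), with 1789. With 4 libraries, such likeness describes these libraries only.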
